A study of Mus musculus with 768 samples.

Results

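The cytokine receptor genes Il7r, Il2rb, Il2rg and Flt3, the kinase genes Jak1 and Jak3, the transcription factor genes Stat5a and Stat5b and the feedback inhibitor genes Socs1 and Cish were taken by name from the counts of single mouse thymocytes, 10 genes of the 23127 in the count table. RNA was counted in 768 sorted cells, 96 on each of 8 plates. The mice were C57BL/6 and 6 to 8 weeks old. The plates hold 4 genotypes that differ in where Tcf7 is deleted. Its product TCF1 is a DNA-binding regulator needed early in T-cell life. The genotypes ask what TCF1 does at successive stages in the thymus.

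The DN2-3 gate took CD45+ cells without lineage markers, CD4 or CD8 and with CD25 on the surface. It gave 1 plate each of Tcf7-/- mice, of Tcf7fl/fl mice with Vav-cre and of wild-type (WT) mice, and 2 plates of Tcf7fl/fl mice with Lck-cre. The DN1 gate took the CD25-negative, CD44+ cells of the same phenotype and gave 1 plate each of Tcf7-/-, Vav-cre and WT mice. Vav-cre is active across blood cells, so other blood lineages of those mice can carry the deletion too, and Lck-cre acts from early T-cell precursors on. The labels name no animal and no sex, so a plate is treated as 1 sample and no test between genotypes is made. Intervals cover counting error only, and counts are not known to be independent molecules.

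Interleukin 7 is made by thymic stroma and holds early thymocytes alive. Its receptor joins the Il7r chain to the common gamma chain encoded by Il2rg; the gamma chain also serves the interleukin 2 and 15 receptors, which use the beta chain encoded by Il2rb. The kinases JAK1 and JAK3 sit on these chains and activate STAT5A and STAT5B, which switch on genes that include Cish and Socs1, whose products shut the signal down. FLT3 is a receptor tyrosine kinase of early progenitors and does not use the gamma chain.

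Of 768 cells, 675 passed a minimum of 1000 detected genes. The kept cells summed to between 1547512 counts (58 Vav-cre DN1 cells) and 8371808 counts (93 Tcf7-/- DN2-3 cells), and the median cell held 19293 to 70003 counts. Tcf7 itself was counted at 122, 964, 762 and 658 CPM (counts scaled to the library total) in the Tcf7-/-, Vav-cre and both Lck-cre DN2-3 plates, against 862 CPM in WT. In the DN1 gate it was counted at 98.6 CPM in Tcf7-/- and 368 CPM in Vav-cre, against 134 CPM in WT. The counts are per gene, so they do not show which exons were read, and Tcf7 checks neither Cre label. The gate labels were checked against markers: Ptcra and Rag1, genes of DN3 thymocytes, were at 147 to 598 CPM and 104 to 258 CPM in the DN2-3 plates, and at 1.12 to 50.97 CPM and 0 to 10.3 CPM in the DN1 plates. In the Tcf7-/- DN1 plate Dntt, a gene of later thymocytes, had a count in 96.9% of cells and at least 6 counts in 48.96%, while Vav-cre had 5.17% and 1.72% and WT 5.81% and 2.33%. Shares of cells with any count are therefore read beside shares with at least 6 counts. In summed libraries, fewer cells of a type and less RNA per cell cannot be told apart.

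Il7r (chr15:9505788-9530176, minus strand, mm10), the chain that binds interleukin 7, was far lower in DN2-3 than in DN1 cells of every genotype sorted in both gates. In the DN2-3 gate it had 155 CPM in Tcf7-/-, 269 CPM in Vav-cre, then 200 and 237 CPM on the Lck-cre plates, against 209 CPM in WT. In the DN1 gate it had 1059 CPM in Tcf7-/- and 3098 CPM in Vav-cre, against 2026 CPM in WT. The gates did not overlap, and in both the order ran Vav-cre, WT, Tcf7-/-. Among the DN2-3 plates the intervals of Lck-cre plate 1 and WT overlap. WT DN2-3 stood 3.22 log2 units below WT DN1 on the scale of log2(CPM + 10) (log2 ratio -3.22, exact 95% interval -3.31 to -3.13). Within DN1 the log2 ratio to WT was -0.93 in Tcf7-/- (interval -0.98 to -0.88) and 0.61 in Vav-cre (0.56 to 0.66). In DN2-3 the ratios to WT were smaller, from -0.41 in Tcf7-/- to 0.35 in Vav-cre. In single cells, 58.1% of Tcf7-/-, 75% of Vav-cre and 54.9% and 68.97% of Lck-cre DN2-3 cells had an Il7r count, against 54.5% of WT cells. In DN1 the shares were 88.5% in Tcf7-/- and 91.4% in Vav-cre, against 98.8% in WT (Clopper-Pearson 95% interval 93.7 to 99.97%).

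Il2rb (chr15:78479256-78495271, minus strand), the signalling chain of the interleukin 2 and 15 receptors, was found in DN1 cells and hardly in DN2-3 cells. In the DN2-3 gate it had 11 counts (1.31 CPM) in Tcf7-/-, 68 counts (15.5 CPM) in Vav-cre and 0 counts on both Lck-cre plates, against 17 counts (3.42 CPM) in WT. The 0 counts leave room for at most 0.604 and 0.632 CPM. With 3 counts per library in place of 0, Il2rb was 6.96-fold and 6.65-fold lower there than in WT DN2-3. That floor, 0.491 and 0.514 CPM, lies under the limits just given, so these folds are not lower bounds. The 17 WT counts lay in 4 cells, and Il2rb was under 10 CPM in all 3 libraries of this comparison. In the DN1 gate it had 294 CPM in Tcf7-/- and 233 CPM in Vav-cre, against 386 CPM in WT, and no intervals overlap. The log2 ratio of WT DN2-3 to WT DN1 was -4.88 (-5.05 to -4.67). In the Vav-cre DN2-3 plate 1 cell held 58.8% of the Il2rb counts, and in the Tcf7-/- DN2-3 plate 1 cell held 90.9%. At least 6 counts were found in 40.6% of Tcf7-/- and 27.6% of Vav-cre DN1 cells, against 67.4% of WT DN1 cells.

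Some NK cell markers were, like Il2rb, lower in every DN2-3 plate than in any DN1 plate, but the list as a whole was not. Of 10 NK markers, 2 or 3 reached 10 CPM in each DN2-3 plate, while in DN1 8 did so in Tcf7-/-, 9 in Vav-cre and 8 in WT. Ncr1 and Eomes were at 0 in all 5 DN2-3 plates, though Ncr1 was also at 0 in WT DN1, and Klrb1c was at 0.239 CPM or less. The list's summed level ran from 1197 to 9707 CPM in DN2-3 and from 2313 to 5330 CPM in DN1. Gzma, a granzyme gene on the list, stood at 788 to 9343 CPM in the DN2-3 plates and at 486 to 1545 CPM in the DN1 plates. The part of these markers in the Il2rb difference was not tested.

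Il2rg (chrX:101264378-101268255, minus strand), the shared gamma chain, was found in both gates. Its exons overlap those of Gm20489 on the same strand by 728 bases. It had 128 CPM in Tcf7-/-, 133 CPM in Vav-cre, then 152 and 159.6 CPM in Lck-cre DN2-3 cells, against 215 CPM in WT. All 4 plates lay below WT, with log2 ratios of -0.71 in Tcf7-/-, -0.66 in Vav-cre and -0.48 and -0.41 on the Lck-cre plates, none as far as 2-fold. In DN1 it had 449.8 CPM in Tcf7-/- and 350.2 CPM in Vav-cre, against 348 CPM in WT. There Vav-cre and WT could not be told apart by their counts (log2 ratio 0.01, -0.12 to 0.14).

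Flt3 (chr5:147330741-147400489, minus strand), the progenitor receptor, was rare. In DN2-3 it had 0 counts in Tcf7-/-, 14 counts in Vav-cre, 11 of them in 1 cell, and 0 counts on both Lck-cre plates, against 0 counts in WT. In DN1 it had 43 counts (10.3 CPM) in Tcf7-/- and 101 counts (65.3 CPM) in Vav-cre, against 48 counts (6.75 CPM) in WT. Vav-cre DN1 stood alone, while the intervals of Tcf7-/- and WT overlap. The log2 ratio of Vav-cre to WT in DN1 was 2.17 (1.87 to 2.44), but 8 of 58 Vav-cre cells held the counts and the top cell held 43.6% of them. That cell also carried 6 of 9 dendritic cell markers at 6 or more counts and 3 of 9 early progenitor markers. Across the dendritic list the DN1 plates summed to 658 CPM in Tcf7-/- and 2495 CPM in Vav-cre, against 1330 CPM in WT, with 7 to 9 of 9 markers at 10 CPM or more and none at 0. The part of these cells in the level of Flt3 was not tested. Cells with at least 2 of 18 markers of B, dendritic or myeloid cells were then left out, a choice made after seeing the data. The 18 are part of the 21 on these lists. With the 48 Vav-cre DN1 cells left, Flt3 was still 2-fold apart from WT. On the full lists, the Vav-cre DN1 cell with 29 Flt3 counts carried 2 dendritic markers and 1 myeloid marker. The cell with 21 counts carried 3 myeloid markers. The value with all 21 markers is not given here.

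**Figure D1:**
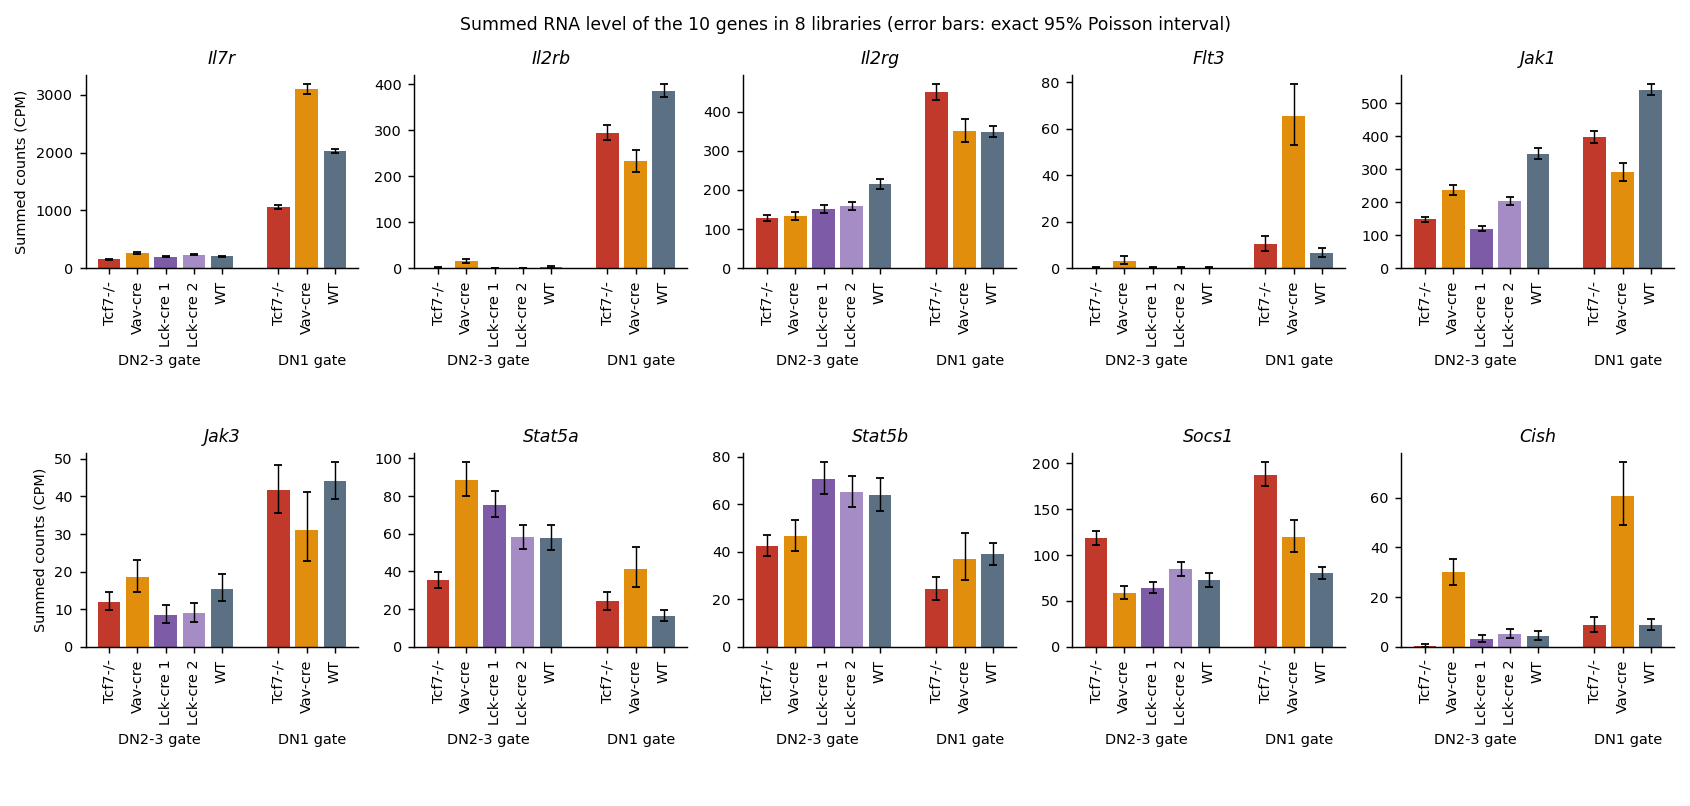
Summed level of each gene (CPM, linear axes that differ between panels) in the 5 DN2-3 libraries, left, and the 3 DN1 libraries, right, with exact 95% Poisson intervals. Il7r and Il2rb are high in the DN1 libraries, Flt3 and Cish stand out in Vav-cre DN1 at 65.3 and 60.7 CPM, and Jak1 is highest in WT in both gates.

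Jak1 (chr4:101152367-101265282, minus strand), the kinase bound to the Il7r and Il2rb chains, was lower in every Tcf7-/-, Vav-cre and Lck-cre plate than in the WT plate of its gate. DN2-3 cells had 149 CPM in Tcf7-/-, 237 CPM in Vav-cre, then 121 and 203 CPM on the Lck-cre plates, against 346 CPM in WT. DN1 cells had 398 CPM in Tcf7-/- and 291 CPM in Vav-cre, against 541 CPM in WT. The DN2-3 log2 ratios were -1.17 in Tcf7-/- (-1.27 to -1.07), -0.53 in Vav-cre (-0.64 to -0.42) and -1.45 and -0.74 on the Lck-cre plates, whose mean is -1.09. The Lck-cre value rests on plate 1: without it, Jak1 is at -0.74 and no longer 2-fold apart. Both plates carry the same labels and differed in Jak1 by -0.71 (log2, plate 1 over plate 2), while the median absolute difference between them over 3712 genes at 50 CPM or more was 0.25 and the 95th percentile 0.85. At least 6 counts of Jak1 were found in 49.5% of Tcf7-/-, 43.4% of Vav-cre and 31.9% and 47.1% of Lck-cre DN2-3 cells, against 61.4% of WT cells.

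The DN2-3 plates hold different shares of cells with Ptcra, which marks DN3 cells, and with Cpa3, a gene of earlier and mast-lineage cells. At 6 or more counts, Ptcra without Cpa3 marked 76 of 93 Tcf7-/-, 44 of 76 Vav-cre and 50 of 91 and 38 of 87 Lck-cre cells, against 23 of 88 WT cells. Within these Ptcra cells Jak1 stood at 159 CPM in Tcf7-/-, 246 CPM in Vav-cre, then 110.5 and 193 CPM in Lck-cre, against 371 CPM in WT. The order of the plates among Ptcra cells was that of the whole plates.

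Jak3 (chr8:71676296-71690575, plus strand), the kinase bound to the gamma chain, was lower in DN2-3 than in DN1. It had 11.9 CPM in Tcf7-/-, 18.5 CPM in Vav-cre, then 8.51 and 8.90 CPM in Lck-cre DN2-3 cells, against 15.5 CPM in WT. In DN1 it had 41.6 CPM in Tcf7-/- and 31.02 CPM in Vav-cre, against 44.01 CPM in WT. WT DN2-3 stood below WT DN1 by a log2 ratio of -1.08 (-1.32 to -0.84). Its exons overlap those of Insl3 on the same strand by 404 bases, and counts there could belong to either gene.

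Stat5a and Stat5b, the transcription factors at the end of the pathway, were higher in WT DN2-3 than in WT DN1. Stat5a had 35.2 CPM in Tcf7-/-, 88.8 CPM in Vav-cre, then 75.4 and 58.04 CPM in Lck-cre DN2-3 cells, against 57.7 CPM in WT. In DN1 it had 24.04 CPM in Tcf7-/- and 41.4 CPM in Vav-cre, against 16.3 CPM in WT, where 1 cell held 42.2% of the counts. Every DN2-3 plate but Tcf7-/- lay above every DN1 plate, though the intervals of WT DN2-3 and of Lck-cre plate 2 both overlap that of Vav-cre DN1. The log2 ratio of WT DN2-3 to WT DN1 was 1.36 (1.14 to 1.58).

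Stat5b had 42.4 CPM in Tcf7-/-, 46.6 CPM in Vav-cre, then 70.7 and 65.1 CPM in Lck-cre DN2-3 cells, against 63.7 CPM in WT. In DN1 it had 24.3 CPM in Tcf7-/- and 36.8 CPM in Vav-cre, against 38.8 CPM in WT. The Lck-cre plates and WT could not be told apart in Stat5b, with intervals that overlap. A count of either Stat5 gene was found in 67.7% of Tcf7-/-, 65.8% of Vav-cre and 72.5% and 73.6% of Lck-cre DN2-3 cells, against 69.3% of WT cells. In DN1 the shares were 46.9% in Tcf7-/- and 22.4% in Vav-cre, against 30.2% in WT. With each cell thinned to 10000 counts they were 20.5% in Tcf7-/- and 18.4% in Vav-cre, against 19.8% in WT. Thinned DN2-3 shares were 37.1% in Tcf7-/- (27.1 to 47.97%), 49.2% in Vav-cre and 52.9% and 52.7% in Lck-cre, against 50% in WT (38.6 to 61.4%). So the near even DN2-3 shares did not hold at equal depth for Tcf7-/-, though its interval overlaps that of WT. The genes lie side by side on chromosome 11 (mm10, Stat5b at chr11:100780731-100850724 and Stat5a at chr11:100859351-100885169), and 15.8% of the 50-base windows of the longest Stat5a transcript occur unchanged in Stat5b. How reads that fit both were counted is not given in the sources used here, so the split between them is uncertain.

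Socs1 (chr16:10782240-10785536, minus strand), an inhibitor of JAK kinases, was highest in the Tcf7-/- plates of both gates. DN2-3 cells had 118 CPM in Tcf7-/-, 59.1 CPM in Vav-cre, then 64.3 and 84.6 CPM in Lck-cre, against 72.5 CPM in WT. DN1 cells had 188 CPM in Tcf7-/- and 119.5 CPM in Vav-cre, against 80 CPM in WT. The log2 ratio of Tcf7-/- to WT was 1.14 in DN1 (0.99 to 1.28) and 0.63 in DN2-3 (0.48 to 0.79). In DN2-3, 51.6% of Tcf7-/- cells held at least 6 Socs1 counts, as did 21.1% of Vav-cre cells and 25.3% and 21.8% of Lck-cre cells, against 23.9% of WT cells. In DN1 the same shares were 33.3% in Tcf7-/- and 15.5% in Vav-cre, against 29.1% in WT. The Tcf7-/- plates alone list mm10 without GRCm38 among the genome builds in the submitters' processing notes. The notes do not show whether these plates were processed otherwise. If they were, genotype and processing could not be told apart in any Tcf7-/- value, of Socs1 or another gene.

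Cish (chr9:107296026-107302784, plus strand), which binds activated cytokine receptors and is a known STAT5 target, was higher in the Vav-cre plates of both gates. DN2-3 cells had 3 counts (0.358 CPM) in Tcf7-/-, 131 counts (29.9 CPM) in Vav-cre and 18 and 29 counts (2.94 and 4.96 CPM) in Lck-cre, against 21 counts (4.22 CPM) in WT. DN1 cells had 36 counts (8.66 CPM) in Tcf7-/- and 94 counts (60.7 CPM) in Vav-cre, against 62 counts (8.72 CPM) in WT. The Vav-cre plates did not overlap the others of their gate. In linear terms Vav-cre over WT was 7.08-fold in DN2-3 (4.45 to 11.8) and 6.97-fold in DN1 (5.004 to 9.76), and the log2 ratios of CPM + 10 were 1.49 and 1.92. In Tcf7-/- DN2-3 the 3 counts came to 0.0849 of the WT level (0.0162 to 0.284).

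The spread of Cish over cells differed between the Vav-cre plates. In DN2-3, 34 of 76 Vav-cre cells (44.7%, 33.3 to 56.6%) held a count and no cell held more than 21, against 9 of 88 WT cells (10.2%, 4.78 to 18.5%). In DN1, 20 of 58 Vav-cre cells (34.5%, 22.5 to 48.1%) held a count, against 9 of 86 WT cells (10.5%, 4.90 to 18.9%). There 1 cell, which carried 4 of 12 ILC markers, held 56 of the 94 counts and the next cell held 5. With each cell thinned to 10000 counts the shares were 27.7% in Vav-cre DN2-3 cells against 5% in WT, and 24.5% in Vav-cre DN1 cells against 3.70% in WT. At least 6 counts were found in 10.5% of Vav-cre DN2-3 cells, against 1.14% of WT cells, and in 1.72% of Vav-cre DN1 cells, against 3.49% of WT cells.

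The promoters of Cish and Il7r are printed because Cish was higher in both Vav-cre plates and Il7r differed most between gates among the genes with a promoter entry. RefSeq promoter windows (GRCm38.p6) matched 9 of the 10 genes. The letters TTCNNNGAA, which read the same on both strands and are the form of site that STAT5 binds, are in capitals. The Cish window is chr9:107296409-107296688 on the plus strand and the Il7r window chr15:9529847-9530126 on the minus strand, each 250 bases before to 30 after the start.
Cish: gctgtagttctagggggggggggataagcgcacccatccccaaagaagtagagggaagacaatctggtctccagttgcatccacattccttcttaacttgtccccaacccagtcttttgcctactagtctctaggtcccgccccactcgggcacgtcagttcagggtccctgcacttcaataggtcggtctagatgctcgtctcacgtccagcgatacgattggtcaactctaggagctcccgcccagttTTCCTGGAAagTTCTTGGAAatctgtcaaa
Il7r: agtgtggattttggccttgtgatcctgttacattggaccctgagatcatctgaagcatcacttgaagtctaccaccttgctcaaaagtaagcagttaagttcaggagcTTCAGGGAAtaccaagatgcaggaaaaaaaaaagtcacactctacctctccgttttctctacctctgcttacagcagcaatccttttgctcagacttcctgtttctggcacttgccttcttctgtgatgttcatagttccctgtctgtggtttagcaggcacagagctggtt
The Cish window holds 2 matches, which do not overlap and begin at the start site and 11 bases after it. The Il7r window holds 1, which begins 142 bases before the start. The other 7 matched genes hold none. Of 32851 promoters of 300 bases, 8.30% hold at least 1 match and 0.457% hold 2 or more. The letters CTTTGA, part of the site bound by TCF1 and its relatives, were searched on both strands in the full windows of 300 bases, which reach 50 bases past the start. They occur in Flt3, Cish and 1 of 2 Stat5a windows, and in 16% of all promoters. The Cish match begins 25 bases after the start and runs past the end of the printed stretch. A match is a run of letters, and binding was not measured. Cish exons overlap those of the antisense gene Gm17041 by 479 bases, and the sources used here do not say whether counting used strand.

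**Figure D2:**
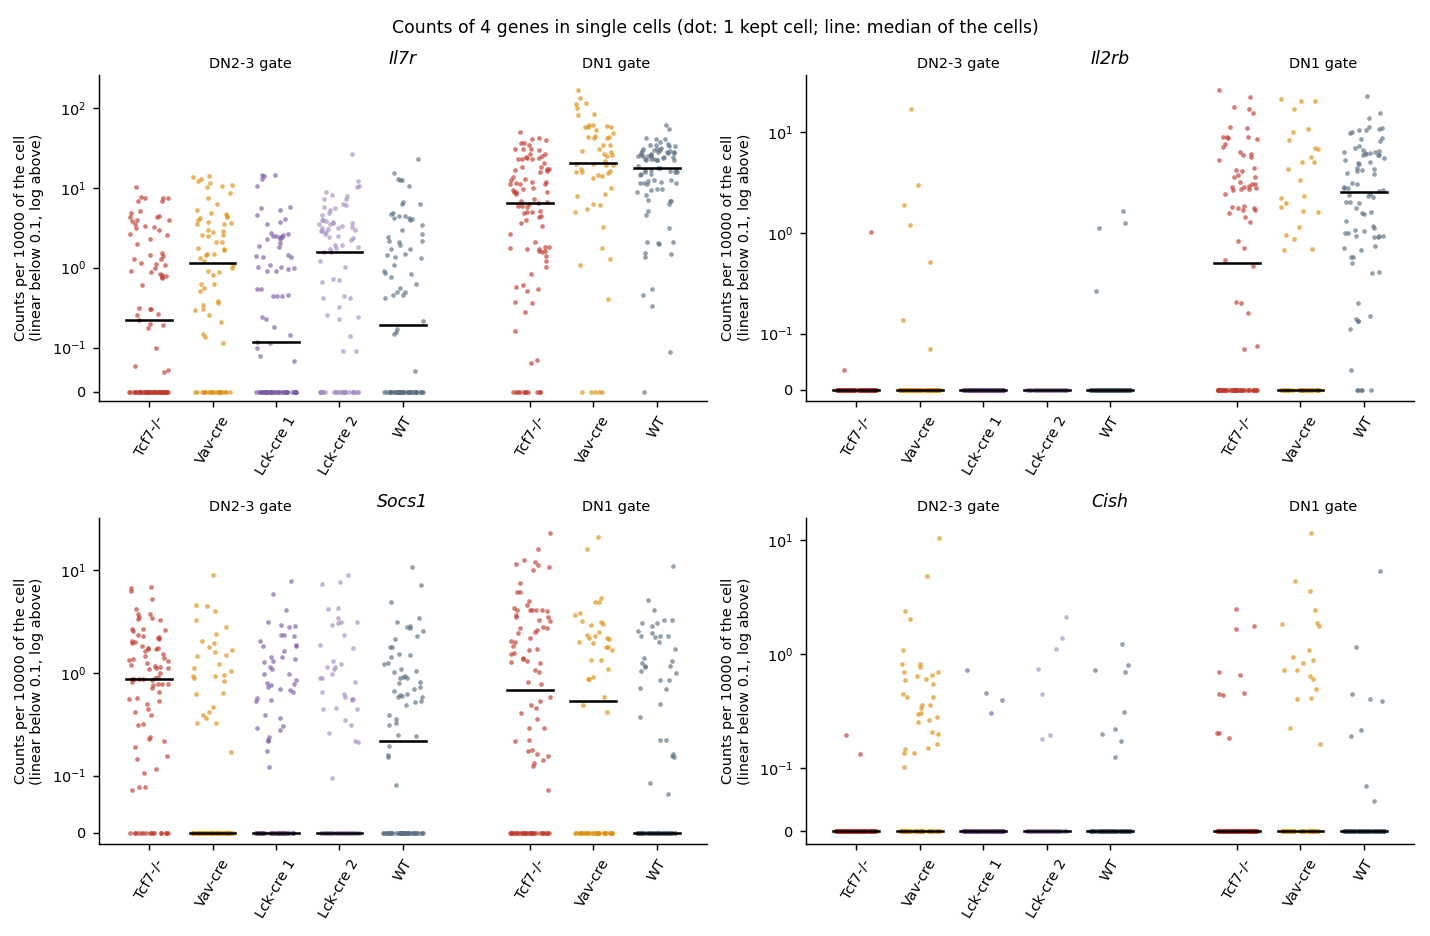
Counts of Il7r, Il2rb, Socs1 and Cish per 10000 counts of the cell (axis linear below 0.1, log above), with 1 dot for each kept cell and a line at the median. Cish counts are spread over many Vav-cre DN2-3 cells, while Il2rb counts lie in the DN1 cells with few exceptions.

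A gene was taken as measured if any library compared held 10 CPM of it, and as apart at 2-fold or more on log2(CPM + 10). In Tcf7-/- DN2-3, 0 of 7 measured genes were higher and 1 was lower, Jak1, where 3.19% of all measured genes were higher and 10.5% lower than in WT. In Vav-cre DN2-3, 1 of 9 was higher, Cish, and 0 were lower, where 5.77% of all measured genes were higher and 10.5% lower. In Lck-cre DN2-3, 0 of 7 were higher and 1 was lower, Jak1, where 0.935% of all measured genes were higher and 3.48% lower. These comparisons share the WT plate.

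The median log2 ratio of the measured genes was -0.49 in Tcf7-/-, 0.16 in Vav-cre and 0.02 in Lck-cre, where all genes had medians of -0.17, -0.14 and -0.08. Median-of-ratios scaling moves these all-gene medians to 0.01, 0.04 and 0.01, and the share of higher calls among all calls to 39.4% in place of 23.4% in Tcf7-/-, 49.96% in place of 35.4% in Vav-cre and 32.5% in place of 21.2% in Lck-cre. Under it Jak1 keeps its direction, at -0.97 in Tcf7-/- and -0.99 in Lck-cre, just short of 2-fold. With 7 to 9 genes measured, a count of 1 is the smallest above 0 and says little beside these shares.

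In the DN1 gate, 1 of 9 measured genes was higher in Tcf7-/- than in WT, Socs1, and 0 were lower, where 10.4% of all measured genes were higher and 5.34% lower. In Vav-cre DN1, 2 of 10 were higher, Flt3 and Cish, and 0 were lower, where 18% of all measured genes were higher and 9.64% lower. The medians were -0.07 and 0.27, against 0.07 and 0.13 for all genes. Stat5a in Vav-cre fell just short, at 0.97 (0.62 to 1.30), as did Jak1 at -0.87. Il7r in Tcf7-/- was at -0.93, and at -1.04 with median-of-ratios scaling.

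The gates differed in more of the genes. In WT DN2-3 against WT DN1, 1 of 8 measured genes was higher, Stat5a, and 3 were lower, Il7r, Il2rb and Jak3, where 16.3% of all measured genes were higher and 11.7% lower. Flt3 had 0 counts in WT DN2-3 and was under 10 CPM in both libraries, so it is not among the measured genes. With 3 counts (0.603 CPM) in place of 0 it was 11.2-fold lower there than in WT DN1. The 0 counts leave room for up to 0.741 CPM, so this fold is not a lower bound. The median of the measured genes was -0.65, against 0.15 for all genes, which median-of-ratios scaling moves to -0.04, with 46.04% of calls higher in place of 58.2%.

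**Figure D3:**
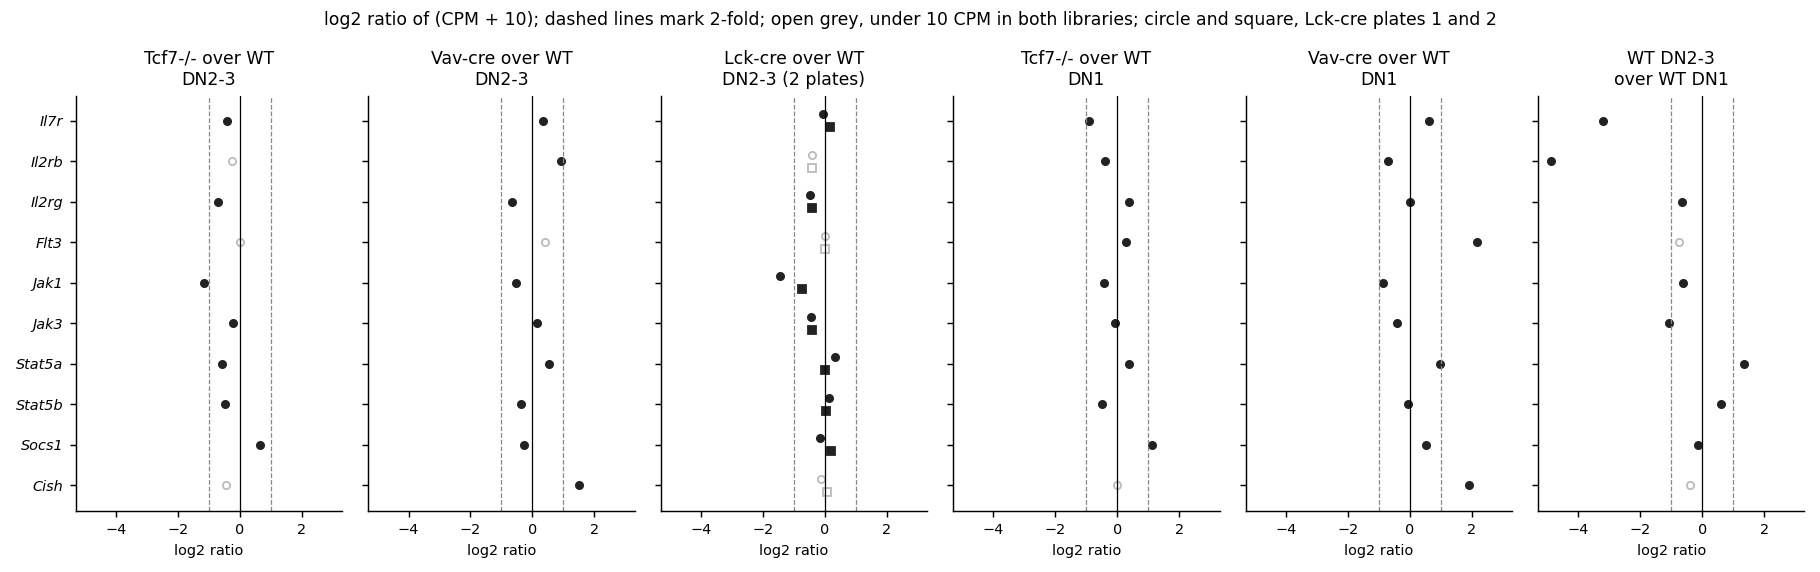
Log2 ratio of CPM + 10 for each gene in the 6 comparisons, with dashed lines at 2-fold and open grey marks for genes under 10 CPM in the libraries compared. The marks of Il7r at -3.22 and Il2rb at -4.88 in the comparison of gates are the farthest from 0, and Cish lies right of the 2-fold line in both Vav-cre comparisons.

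DN1 cells are a mix, so the genes were also read within cells that carry markers of the same list. DN1 cells were placed by the NK, ILC and early progenitor lists only. A cell went to the list with the most markers at 6 or more counts, with at least 3. Other lists were not used, so a placed cell can carry more markers of another type. The Vav-cre cell with the most Flt3 counts was placed by 3 progenitor markers and carried 6 dendritic markers. The only WT cell placed by the progenitor list carried 6 of its markers and 5 dendritic markers. The ILC list (genes of innate lymphoid cells) placed 29 of 96 Tcf7-/- and 32 of 58 Vav-cre cells, against 10 of 86 WT cells. The NK list placed 28 Tcf7-/- and 6 Vav-cre cells, against 62 WT cells. The early progenitor list placed 13 Tcf7-/- and 5 Vav-cre cells, against 1 WT cell. Cells of a class were not alike across genotypes. In the ILC class Cd3d, a CD3 chain gene of T cells, stood at 558 CPM in Tcf7-/- and 525 CPM in Vav-cre, against 2012 CPM in WT. The median cell of that class held 45131 counts in Tcf7-/- and 20939 in Vav-cre, against 104642 in WT. Differences within a class can therefore hold differences in cell type and depth. Many cells lie near the limit of 3 markers, with 30 Tcf7-/-, 2 Vav-cre and 6 WT cells at 2 NK markers. At 2 ILC markers there were 8 Tcf7-/-, 9 Vav-cre and 23 WT cells. In WT, 20 cells carried at least 3 ILC markers and 10 of them were placed by the ILC list, so the WT ILC class depends on the rule.

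Il7r was high in ILC-marker cells and low in progenitor-marker cells. In ILC-marker cells it stood at 2160.4 CPM in Tcf7-/- and 5202 CPM in Vav-cre, against 2505 CPM in WT. In NK-marker cells it stood at 1101 CPM in Tcf7-/- and 2191 CPM in Vav-cre, against 2116 CPM in WT. In progenitor-marker cells it stood at 54.6 CPM in Tcf7-/- and 69.7 CPM in Vav-cre, while the single WT cell held 627 CPM. In ILC-marker and NK-marker cells Tcf7-/- lay below WT, and in ILC-marker cells Vav-cre lay above it.

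Il2rb was near even across genotypes in NK-marker cells, at 464 CPM in Tcf7-/- and 450.5 CPM in Vav-cre, against 427 CPM in WT, with intervals that overlap. In ILC-marker cells it had 487 CPM in Tcf7-/- and 233 CPM in Vav-cre, against 299 CPM in WT. In progenitor-marker cells it had 30.6 CPM in Tcf7-/- and 0 in Vav-cre and in the WT cell. Flt3 had a higher level in progenitor-marker cells, with 23.3 CPM in Tcf7-/-, 298 CPM in Vav-cre and 123 CPM in the WT cell. In any ILC-marker or NK-marker class it had at most 5.57 CPM. The Vav-cre progenitor-marker value came from 3 of 5 cells, and the top one carried 6 dendritic markers. In WT DN1, 27 of the 48 Flt3 counts lay in 1 NK-marker cell and 18 in the progenitor-marker cell. Socs1 stood at 349 CPM in Tcf7-/- and 164 CPM in Vav-cre ILC-marker cells, against 76.4 CPM in WT, and at 144 CPM in Tcf7-/- and 30.6 CPM in Vav-cre NK-marker cells, against 75.8 CPM in WT. Jak1 in ILC-marker cells was at 401 CPM in Tcf7-/- and 339 CPM in Vav-cre, against 381 CPM in WT, with intervals that overlap. In NK-marker cells Jak1 was at 462 CPM in Tcf7-/- (423 to 503) and 302 CPM in Vav-cre (235 to 382), against 566 CPM in WT (545 to 588), and neither interval overlaps that of WT. Cish in ILC-marker cells was at 20.2 CPM in Tcf7-/- and 99.8 CPM in Vav-cre, against 0 in the 10 WT cells (at most 2.63 CPM). The cell with 56 Cish counts is 1 of these Vav-cre cells and holds most of their 79 counts. Without it the Vav-cre level is 30.97 CPM (19.6 to 46.5).

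**Figure D4:**
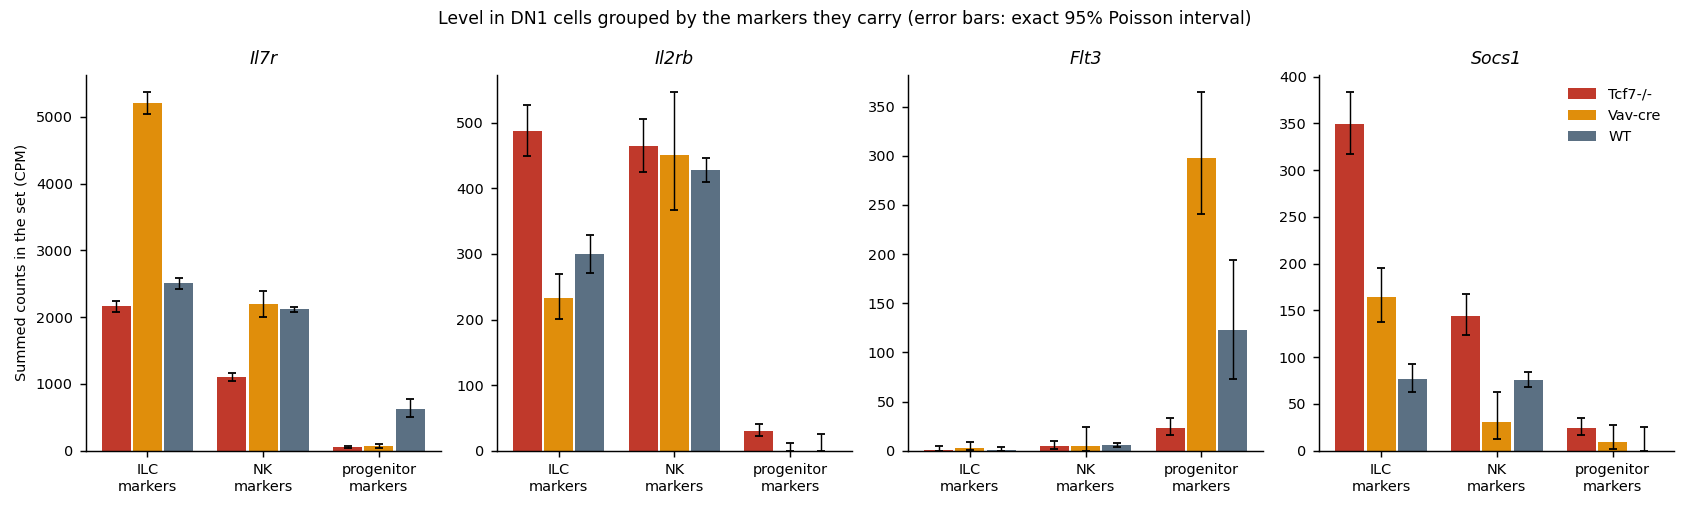
Level (CPM within the class, linear axes) of Il7r, Il2rb, Flt3 and Socs1 in DN1 cells with ILC, NK or early progenitor markers, with exact 95% Poisson intervals. The progenitor class holds 13 Tcf7-/-, 5 Vav-cre and 1 WT cell. Flt3 is highest there, and Il7r and Il2rb are higher in the ILC and NK classes.

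A receptor needs both chains in the same cell. Il7r and Il2rg were counted together in 48.4% of Tcf7-/-, 50% of Vav-cre and 34.1% and 44.8% of Lck-cre DN2-3 cells, against 39.8% of WT cells. In DN1 the shares were 77.1% in Tcf7-/- and 68.97% in Vav-cre, against 87.2% in WT. With cells thinned to 10000 counts these DN1 shares were 65.8% in Tcf7-/- and 63.3% in Vav-cre, against 61.7% in WT, in another order. At 6 or more counts of each gene, without thinning, 41 of 96 Tcf7-/- and 25 of 58 Vav-cre DN1 cells remained, against 53 of 86 WT cells. Il7r and Il2rb together were found in 51.04% of Tcf7-/- and 43.1% of Vav-cre DN1 cells, against 94.2% of WT cells, and still so after thinning, at 52.1% in Tcf7-/- and 42.9% in Vav-cre, against 71.6% in WT.

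The interleukin 2 receptor of high affinity adds the alpha chain encoded by Il2ra, the gene of the CD25 protein on which the gates were sorted. Il2ra, Il2rb and Il2rg were counted together in 34.4% of Tcf7-/- and 6.90% of Vav-cre DN1 cells, against 9.30% of WT DN1 cells. At 6 or more counts of each, 7 of 96 Tcf7-/- and 0 of 58 Vav-cre cells remained, against 2 of 86 WT cells. In DN2-3 the joint share was 2.15% in Tcf7-/-, 5.26% in Vav-cre and 0 of 91 and 0 of 87 Lck-cre cells, against 3.41% in WT. The zeros allow shares of up to 3.97% and 4.15% (Clopper-Pearson).

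Of 15 other receptor genes of lymphoid cytokines, 13 were measured in DN1. In Tcf7-/- DN1 4 were at least 2-fold higher and 0 lower, and in Vav-cre DN1 8 were higher and 0 lower, with medians of 0.43 and 1.34. In the same comparisons 10.4% of all measured genes were higher and 5.34% lower in Tcf7-/-, and 18% higher and 9.64% lower in Vav-cre. Il2ra stood at 60.6 CPM in Tcf7-/- and 169 CPM in Vav-cre, against 9.70 CPM in WT. Any Il2ra count was found in 72.9% of Tcf7-/- and 36.2% of Vav-cre DN1 cells, against 9.30% of WT cells. Shares with at least 6 counts were 14.6% in Tcf7-/- and 17.2% in Vav-cre, against 2.33% in WT. The top cell held 37.9% of the Il2ra counts in Vav-cre DN1 and 57.97% in WT DN1. Kit, the stem cell factor receptor and a gene of the progenitor list, stood at 76.2 CPM in Tcf7-/- and 129.9 CPM in Vav-cre, against 10.1 CPM in WT. Il1r1, an interleukin 1 receptor and a gene of the ILC list, stood at 91.8 CPM in Tcf7-/- and 107 CPM in Vav-cre, against 21.7 CPM in WT. In DN2-3, 1 of 10 was higher and 4 lower in Tcf7-/-, 2 of 11 higher and 1 lower in Vav-cre, and 0 of 8 higher and 1 lower in Lck-cre. There 3.19% of all measured genes were higher and 10.5% lower in Tcf7-/-, 5.77% higher and 10.5% lower in Vav-cre, and 0.935% higher and 3.48% lower in Lck-cre. Ifngr1, an interferon gamma receptor chain, stood at 266 CPM in Tcf7-/- DN2-3, against 611 CPM in WT. In WT DN2-3 against WT DN1 1 of 12 was higher, Il2ra, whose protein the sort used, and 4 were lower, beside 16.3% and 11.7% of all measured genes. Il18r1, an interleukin 18 receptor chain, had 0 CPM in WT DN2-3, against 161 CPM in WT DN1, and Crlf2, the TSLP receptor, had 16.5 CPM, against 73.8 CPM.

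Of the 7 other JAK and STAT genes, none was 2-fold apart in the DN1 comparisons, where 10.4% of all measured genes were higher and 5.34% lower in Tcf7-/- and 18% higher and 9.64% lower in Vav-cre, or in Lck-cre, where 0.935% were higher and 3.48% lower. In Tcf7-/- DN2-3 0 were higher and 2 lower, and in Vav-cre DN2-3 0 were higher and 2 lower, where 10.5% of all measured genes were lower in each. Stat4, which interleukin 12 activates, stood at 12.4 CPM in Tcf7-/- and 16.7 CPM in Vav-cre, against 52.2 CPM in WT DN2-3. In WT DN2-3 against WT DN1 0 were higher and 2 lower, beside 16.3% and 11.7% of all measured genes, with Tyk2, a further JAK kinase, at 18.9 CPM in WT DN2-3, against 59.3 CPM in WT DN1.

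Among 15 other inhibitor genes Socs2, also a known STAT5 target, was, like Cish, highest in the Vav-cre plates. In DN2-3 it stood at 70.6 CPM in Tcf7-/-, 176 CPM in Vav-cre, then 14.2 and 15.1 CPM in Lck-cre, against 31.95 CPM in WT. In DN1 it stood at 79.3 CPM in Tcf7-/- and 127 CPM in Vav-cre, against 19.3 CPM in WT. In Tcf7-/- cells of both gates it lay above WT, where Cish lay below WT in DN2-3 and could not be told apart from it in DN1. Socs3 stood at 84.9 CPM in Vav-cre DN2-3, against 33.6 CPM in WT. Over the list, 3 of 14 were higher and 2 lower in Vav-cre DN1, 3 of 13 higher and 0 lower in Vav-cre DN2-3, 1 of 13 higher and 0 lower in Tcf7-/- DN1, 0 of 12 higher and 2 lower in Tcf7-/- DN2-3, and 0 of 12 in either direction in Lck-cre. The shares of all measured genes were 18% higher and 9.64% lower in Vav-cre DN1, 5.77% and 10.5% in Vav-cre DN2-3, 10.4% and 5.34% in Tcf7-/- DN1, 3.19% and 10.5% in Tcf7-/- DN2-3 and 0.935% and 3.48% in Lck-cre. In WT DN2-3 against WT DN1 1 of 12 was higher and 2 were lower, beside 16.3% and 11.7% of all measured genes. Ptpn6, the phosphatase SHP-1, was at 180.1 CPM in WT DN2-3, against 574 CPM in WT DN1.

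Of 16 genes known to answer STAT5 or interleukin 7, 13 to 15 were measured. In Tcf7-/- DN2-3 2 were higher and 2 lower, in Vav-cre DN2-3 2 higher and 1 lower, in Lck-cre 0 higher and 1 lower, in Tcf7-/- DN1 2 higher and 1 lower, and in Vav-cre DN1 3 higher and 3 lower. The shares of all measured genes, higher and then lower, were 3.19% and 10.5%, 5.77% and 10.5%, 0.935% and 3.48%, 10.4% and 5.34%, and 18% and 9.64% in the same order of comparisons. Pim1, a survival kinase, stood at 148 CPM in Tcf7-/- DN2-3, against 33.4 CPM in WT, and at 137 CPM in Tcf7-/- DN1, against 36.1 CPM in WT. Bcl2, which blocks cell death, stood at 74.8 CPM in Tcf7-/- DN2-3, against 237 CPM in WT. Id2, an inhibitor of E proteins, stood at 377 CPM in Vav-cre, then 19.8 and 21.9 CPM in Lck-cre DN2-3 cells, against 74.96 CPM in WT. In WT DN2-3 against WT DN1 1 of 14 was higher and 2 were lower, beside 16.3% and 11.7% of all measured genes, with Id2 at 74.96 CPM in WT DN2-3, against 3013 CPM in WT DN1.

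Of 11 regulators of Il7r, Nr3c1, the glucocorticoid receptor, stood at 151 CPM in Tcf7-/- and 170.3 CPM in Vav-cre DN2-3 cells, against 503 CPM in WT. Runx1 stood at 172 CPM in Tcf7-/- and 148 CPM in Vav-cre DN1 cells, against 49.8 CPM in WT. Ets1 stood at 216 CPM in Tcf7-/- and 188 CPM in Vav-cre DN1 cells, against 445 CPM in WT. In DN2-3, 1 of 9 was higher and 1 lower in Tcf7-/-, 0 of 8 higher and 2 lower in Vav-cre, and 0 of 9 in either direction in Lck-cre. All measured genes gave 3.19% higher and 10.5% lower in Tcf7-/-, 5.77% and 10.5% in Vav-cre, and 0.935% and 3.48% in Lck-cre. In DN1, 1 of 9 was higher and 2 lower in Tcf7-/-, and 1 of 9 higher and 1 lower in Vav-cre, where all measured genes gave 10.4% higher and 5.34% lower in Tcf7-/- and 18% and 9.64% in Vav-cre. In WT DN2-3 against WT DN1 3 of 10 were higher and 4 lower, beside 16.3% and 11.7% of all measured genes. Klf2, a factor of resting lymphocytes, was at 16.3 CPM in WT DN2-3, against 159.7 CPM in WT DN1.

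Likeness of pattern was measured as Pearson's r of log2(CPM + 10) over the 8 libraries, among 5384 genes at 50 CPM or more in at least 1 library. The libraries fall into 2 gates and share genotypes, so r is a description of these plates. Il2rb was most like Ly6g5b (r = 0.998), Runx3 (0.997), Cd52 (0.995), Icos (0.993) and Gramd1a (0.988). Il7r was most like Pea15a (r = 0.992), Bcl2a1d (0.988), Cd74 (0.988), H2-Aa (0.986) and Fam129a (0.986). All of these were higher in each DN1 plate than in any DN2-3 plate, and Cd74 and H2-Aa are on the dendritic cell list. Flt3 was most like Abcc1, Plekhg1, Sdc1, Cd200r1 and Fcgr2b (r = 0.981 to 0.982), which were highest in Vav-cre DN1. Cish was most like Aida (r = 0.974), Mtmr12, Dip2b, Ptpn2 and Ms4a6c (0.933 to 0.942), and each was highest in Vav-cre DN1. Ptpn2, a phosphatase that acts on JAK and STAT proteins, stood at 113 CPM in Vav-cre DN2-3 cells, against 88.2 CPM in WT, and at 121 CPM in Vav-cre DN1 cells, against 101 CPM in WT.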

How the data were processed

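Single cells were sorted into plates and sequenced with a modified STRT protocol, per the labels' protocols. The authors' deposited table holds raw whole-number counts per gene and cell, and a second deposited table holds log2(TPM/10 + 1), used as an alternative. Per the submitters' processing notes the tools were TopHat2 2.1.1 and HTSeq, with mm10 listed for all 768 cells and GRCm38 for 576. Whether molecular identifiers were collapsed is not given in the sources used here.

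Of 23154 entries, 27 spreadsheet dates (0.141% of counts) were left out. Columns were assigned to plates by their prefix. The 96 barcode numbers recur on every plate and name wells, and no cells were identical. Doublets were not called. Kept cells (at least 1000 genes) were summed per plate and scaled to CPM. Intervals are exact at 95%: Poisson for levels, Clopper-Pearson for shares, conditional binomial for ratios. With 1 plate a group, or 2 for Lck-cre, no test was made. A gene was called at 2-fold on log2(CPM + 10) if at 10 CPM or more in a library compared. All 10 genes are named. Genes of the wider lists are named from those called at 50 CPM or more. The genes and lists were chosen with earlier results of these data known. Python 3.11.15, numpy 2.4.6, pandas 2.3.3, scipy 1.17.1 and matplotlib 3.10.9 were used.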

Additional observations from a re-analysis of the deposited data

Results flagged for a closer look

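Il2rb differed in opposite directions between Vav-cre and WT in the gates. The log2 ratio of Vav-cre to WT was -0.71 in DN1 and 0.93 in DN2-3, so DN1 minus DN2-3 is -1.64. The difference was not tested, since each group is 1 plate. In DN2-3 the value rests on 68 Vav-cre counts, 40 of them in 1 cell, against 17 WT counts.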

How the results depend on the processing

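No paired analysis was possible because barcode numbers name wells and no plates are paired. Over 680 recomputed ratios of the 10 genes 500 stayed within the main value's counting interval and 180 left it. Of the 680, 34 changed sign, 0 of them for a gene 2-fold apart in the report. Among the larger ones, Stat5b in Vav-cre DN2-3 was at -0.38 and at 0.75 with cells weighted equally, and Socs1 in Vav-cre DN1 was at 0.53 and at -0.13 with a minimum of 2000 genes. The number of genes 2-fold apart changed as follows; the cause was not tested unless stated. With a pseudocount of 50 CPM, which shrinks low genes by construction, it was 0 in Tcf7-/-, Vav-cre and Lck-cre DN2-3 and in Tcf7-/- DN1, 1 in Vav-cre DN1 (Flt3) and 2 between the WT gates (Il7r, Il2rb). With median-of-ratios scaling it was 0 in Tcf7-/- and Lck-cre DN2-3, 2 in Vav-cre DN2-3 (Il2rb, Cish) and 2 in Tcf7-/- DN1 (Socs1, Il7r). Vav-cre DN2-3 gave 2 (Il2rb, Cish) with thinned cells, a pseudocount of 1 CPM or counts of 1 to 5 set to 0, and 3 (with Il2rg lower) with cells weighted equally or the deposited log2 values. Thinning gave 2 in Tcf7-/- DN2-3 (Socs1, Jak1), and a minimum of 2000 genes gave 4 in Vav-cre DN1. Leaving out a Lck-cre plate gave 0 to 1. Vav-cre DN1 also gave 3 with cells weighted equally (with Socs1), with a pseudocount of 1 CPM or without each gene's top cell (with Stat5a). The deposited log2 values kept it at 2, but with Socs1 in place of Flt3, whose log2 ratio was 0.96 there and 2.17 in the report. Thinning gave 3 between the WT gates, without Jak3. Using all 96 cells, no low filter, or leaving out cells with B, dendritic or myeloid markers moved no count. That marker filter was chosen after seeing the data and used 18 of the 21 listed markers. Depth limits Flt3, Il2rb and Cish in DN2-3, which rest on few counts in most plates.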
